A study of Mus musculus with 18 samples.

Results

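Circular RNAs of 5 genes were followed in mouse brain: Tulp4, Cdyl, Rtn4, Klhl2 and Foxo3, each the host of a well-studied mammalian brain circle. A circle was included when the gene annotation of the deposited tables named one of these hosts. On Illumina this gave 142 circles of 208914, with 195949 of 24811696 back-splice reads, split into 71 circles of Tulp4, 36 of Klhl2, 15 of Rtn4, 13 of Cdyl and 7 of Foxo3. On Oxford Nanopore (ONT) it gave 146 circles of 166212, with 28242 of 3048404 reads. Of these circles, 35 were listed on both platforms. Of the 142, 106 were annotated as exonic, 29 as intronic and 7 as antisense, and 15 overlapped a further gene, so that their host is uncertain. The libraries carry no stated strand mark.

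RNA came from whole brains of male C57BL/6J mice at an age of 3 to 4 months. The wild type was compared with 2 mutants that lack enzymes of adenosine-to-inosine RNA editing. The first mutant, Adar2-/-Gria2R/R, is called Adar2KO here. It lacks ADAR2, the product of Adarb1, and its Gria2 gene, for a glutamate receptor subunit, is replaced by the pre-edited R allele. The second, Adar1E861A/E861A Ifih-/-Adar2-/-Gria2R/R, is called Adar1-2KO. It carries the same 2 changes, a catalytically inactive ADAR1 with the substitution E861A, and no Ifih, the gene of the double-stranded RNA sensor MDA5. Both mutants thus share the Gria2 allele and the loss of ADAR2, and Adar1-2KO differs from Adar2KO in Adar1 and Ifih together, which cannot be told apart. Each genotype had n = 3 libraries, described as biological replicates, on Illumina. ONT values came from n = 3 libraries per mutant and n = 2 of wild type, and wild type 1 on ONT was not analysed here. Both mutants were compared with the same wild type libraries, so these comparisons are not independent.

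The Illumina libraries held 1516772 to 4308264 back-splice reads over 21736 to 76743 circles, and the ONT libraries 186594 to 673705 reads. Adar1-2KO 3 stood apart, with the most Illumina reads and the fewest circles, and listed 20 of the 142 circles against 47 to 78 in the others. The most abundant Adarb1 circle was absent from the lists of all wild type libraries and had 134 to 724 reads in each mutant library, so that the labels split the mutants from wild type, although the deleted exons are not given. All 10 neuronal marker hosts had circles, with 29030 to 34980 summed CPM (counts per 1000000 back-splice reads of the library, scaled by the TMM method). Astrocyte markers were listed for 5 of 6 genes, Aqp4 being at 0, at 557.4 to 716.7 CPM. All 6 oligodendrocyte lineage hosts summed to 485.6 to 729.6. Of the microglial hosts 2 of 4 were listed, Csf1r and Cx3cr1 being at 0, at 51.6 to 83.65, and endothelial hosts summed to 18.68 to 86.73. Of 8 hosts of other organs, Alb, Apob, Cps1, Myh7 and Umod were at 0. The 3 that were listed summed to 0 to 25.06 CPM, a range that reaches into that of the endothelial hosts. In whole-brain RNA, fewer cells of a type and less RNA per cell cannot be told apart.

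A circular RNA forms when the splice donor at the end of an exon joins the acceptor at the start of the same or an earlier exon. The back-splice junction made this way is absent from the linear transcript and is the sequence that counts a circle. Circles have no free ends, resist the exonuclease RNase R and accumulate in neurons. Base-paired repeats in the flanking introns favour back-splicing, and ADAR enzymes edit such double-stranded RNA, which is the link between editing enzymes and circles. Tulp4 encodes a large tubby-like protein. Cdyl encodes a chromodomain corepressor that binds methylated histone H3 and works with REST and the methyltransferases EHMT and EZH2. Rtn4 encodes the Nogo proteins, which shape the endoplasmic reticulum, and Nogo-A restrains axon growth. Klhl2 encodes Mayven, a kelch protein that binds actin and brings substrates to the CUL3 ubiquitin ligase. Foxo3 encodes a forkhead transcription factor restrained by AKT.

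The junctions of the most abundant circle of each host are shown because they are what every count below rests on. Further circles of Tulp4, Cdyl and Klhl2 are shown where they reuse one of these splice sites. Each line holds the 15 bases before the junction, from the donor exon, in lower case and the 15 after it, from the acceptor exon, in capitals, 5′ to 3′ on the transcribed strand. The bases are from GENCODE M21 transcripts, whose exons were recognised by the spacing of exon ends. The coordinates are those of the deposited tables, on GRCm39.
Tulp4 chr17:6187486-6189431 (plus strand): ggccacaacagtgagAGTTGTAAGAGTCCA
Tulp4 chr17:6187486-6235573: cccgatgaccagcagAGTTGTAAGAGTCCA
Tulp4 chr17:6187486-6227232: gaccgtggggctcagAGTTGTAAGAGTCCA
Cdyl chr13:35999892-36000558 (plus strand): ctgttaatggaaaagGTGGAAAGTATCGTT
Cdyl chr13:35974084-36000558: ctgttaatggaaaagCAAAATAATGTGGTT
Rtn4 chr11:29655535-29658770 (plus strand): tgaataaaacttcagATGAGACCCTTTTTG
Klhl2 chr8:65264332-65287220 (minus strand): gaggagaacgtgcagATGCACAAAGCAGGG
Klhl2 chr8:65232732-65287220: ccaacacgtatgcagATGCACAAAGCAGGG
Foxo3 chr10:42072462-42073897 (minus strand): aaatgggcaaagcagAACTCCATCCGGCAC

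The identical capitals in the Tulp4 lines show 1 acceptor joined to different donors, and the identical lower-case bases in the Cdyl lines show 1 donor joined to different acceptors. In Klhl2 the acceptor of exon 2 is shared by both circles.

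The main Tulp4 circle is 1 unspliced block of 1946 bases, with 43.525% GC and 252 coding bases. Its donor is the end of the first exon of Tulp4-201, and its acceptor, at 6187486, is the start of exon 3 of Tulp4-210. ONT listed it as 1 block in all 8 libraries. The other ONT isoforms of this circle, with an inner gap, were each listed in 1 library. The main Cdyl circle is exon 5 of Cdyl-201, 667 bases, all coding. The next Cdyl circle adds exon 4, for 742 bases. The Rtn4 circle joins exons 2 and 3 of Rtn4-205, the latter being the long exon of Nogo-A. It holds 2418 annotated bases, all coding and a multiple of 3, whereas its ONT blocks sum to 2422 bases.

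The main Klhl2 circle holds exons 2 to 4 of Klhl2-205, 355 bases, and the next extends to exon 5, 518 bases. A further inner exon of 403 bases (chr8:65270280-65270682) was listed by ONT in 3 of 8 libraries for the shorter circle and in 5 of 8 for the longer. The Foxo3 circle is exon 3 of Foxo3-201, 1436 bases, of which 1401 are coding, with 59.192% GC.

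A single circle dominated each host. It took 98.39% of the Illumina back-splice reads of Foxo3, 88.776% of Tulp4, 88.368% of Cdyl, 88.143% of Rtn4 and 78.987% of Klhl2. These are CIRIquant counts. CIRI2, a second caller, gave the Klhl2 circle a smaller part, 6044 of 10201 reads of the host in 8 libraries. In Cdyl the 2 leading circles held 99.555%. On ONT the same circles took 95.837% of Tulp4 reads, 90.355% of Foxo3, 89.353% of Cdyl, 65.248% of Rtn4 and 63.488% of Klhl2. Splice sites were reused beyond these circles. In Tulp4, 16 circles started at 6187486 and held 96.388% of the host's reads. In Cdyl, 3 circles ended at the donor 36000558 and held 99.556%. In Klhl2, 9 circles shared the acceptor at 65287220 and held 89.06%.

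**Figure D1:**
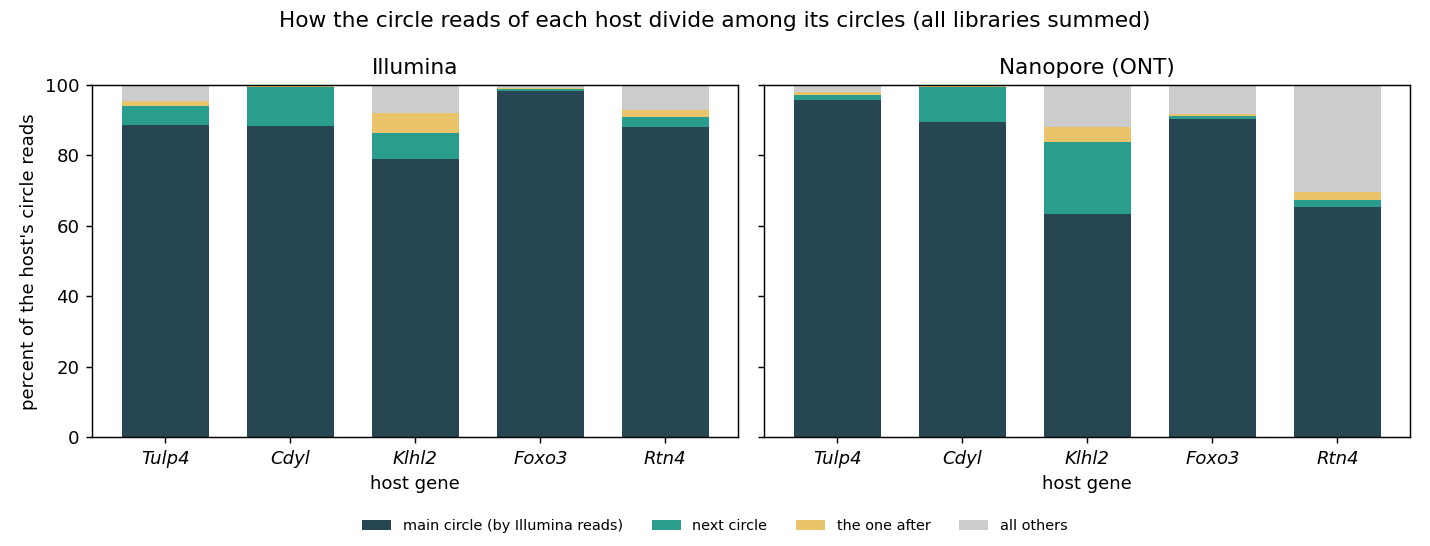
Stacked bars give the percentage of each host's circle reads (y axis, 0 to 100%) held by the main circle, the next, the one after and all others, for Illumina and ONT and the hosts Tulp4, Cdyl, Klhl2, Foxo3 and Rtn4. The main circle is the largest block in every bar, from 63.488% for Klhl2 on ONT to 98.39% for Foxo3 on Illumina.

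The platforms differed in the minor circles of Tulp4. Of the 16 circles that start at 6187486, ONT listed 1, the main circle, with 13653 reads. The circle that ends at 6235573 had 5525 Illumina reads and 0 ONT reads, and the circle that ends at 6227232 had 1317 and 0. ONT tables list circles from 2 reads up in a library, so a lower number cannot be seen. Among all 3577 Illumina circles with at least 1000 reads, 325 (9.09%) were not listed by ONT. The cause was not tested. For the main circles ONT gave 17.31 reads per 100 Illumina reads for Rtn4, 16.09 for Cdyl, 14.78 for Tulp4, 13.87 for Foxo3 and 6.566 for Klhl2, against a median of 9.533 over circles of at least 1000 Illumina reads. The order of these ratios depends on the libraries and on the caller. ONT reads come from 8 libraries and Illumina reads from 9, since wild type 1 on ONT was not analysed. Wild type 1 held 42 of the 1063 Rtn4 reads, 11010 of the 69889 Cdyl reads and 16774 of the 92381 Tulp4 reads. CIRIquant counted 1063 reads for Rtn4 and 69889 for Cdyl in 9 libraries. CIRI2, a second caller, counted 1454 and 96096 in 8 libraries. Within Klhl2, the circle chr8:65232732-65287220 gave 22.29, but this rests on 673 Illumina reads by CIRIquant, and CIRI2 counted 1653.

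Levels of single circles are in the same CPM, and per kilobase of circle where hosts are compared. A circle has a single back-splice junction whatever its length, so the division by length is a description and no correction of these counts. In wild type brain on Illumina the Cdyl circle had the highest level per length, 5380 ± 480 CPM per kb (SD, n = 3), and the Tulp4 circle followed at 2621 ± 711. Klhl2 reached 807 ± 163, Foxo3 72.3 ± 14.9 and Rtn4 14.6 ± 14.5. With CIRIquant counts the lowest library of each host lay above the highest of the next in this order. The place of Rtn4 depends on the caller. CIRIquant counted 42, 38 and 121 reads of its circle in wild type 1, 2 and 3, and CIRI2 counted 303, 304 and 122. For the Foxo3 circle CIRI2 counted 285, 308 and 161 there. ONT gave Cdyl 6058, Tulp4 3503 and Klhl2 434 CPM per kb as means of 2 libraries. Foxo3 was at 90.9 and Rtn4 at 57.4 there. Without division by length, the order of Tulp4 and Cdyl was reversed. The Tulp4 circle ranked 12 and the Cdyl circle 18 of all Illumina circles in wild type brain, and 4 and 15 on ONT. Ranks of the Klhl2, Foxo3 and Rtn4 circles on Illumina were 487, 1406 and 3823 by CIRIquant. In CIRI2 sums per host, Rtn4 ranked 1755 and Foxo3 1794 in wild type brain.

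In the comparison of genotypes, the summed circles of all 5 hosts had lower fitted levels in Adar1-2KO than in wild type and than in Adar2KO on both platforms, but none passed the test, and scaling to mapped reads turned the Illumina sign of 3 hosts against wild type. Among the 5 hosts the Tulp4 circles showed the clearest separation, with log2 fold changes near -1 against wild type on Illumina and ONT. The share of all circles or hosts whose groups separate without overlap is not given here. Such separations are thus descriptions, here and below, and do not set the members apart from other circles. Cdyl and Rtn4 values depended on the counting tool, and Klhl2 and Foxo3 lay closer together. Summed endothelial marker hosts moved with the groups, at 29.52 to 35.46 CPM for wild type, 18.68 to 28.68 for Adar2KO and 39.02 to 86.73 for Adar1-2KO, and their part in these values was not tested. Astrocyte marker hosts also separated Adar2KO, at 676.2 to 713.9 CPM, from wild type, at 593.0 to 658.2, while Adar1-2KO spanned 557.4 to 716.7, and their part was not tested either. Neuronal marker hosts overlapped, at 29370 to 32430, 29370 to 30100 and 29030 to 34980 CPM. A circle was tested when 3 or more libraries held 5 or more of its reads, which left 41 of 142 on Illumina (24 of Tulp4, 7 of Cdyl, 7 of Klhl2, 2 of Rtn4 and 1 of Foxo3) and 14 of 146 on ONT. These were fitted together with all other circles by edgeR's quasi-likelihood test, with Benjamini-Hochberg adjustment over all features at 0.05. With replicate animals, the p-values measure the spread between these few brains.

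For Adar2KO against wild type, 0 of 41 circles passed on Illumina, where 0.0209% of all 38297 tested circles did, and 1 of 41 had an unadjusted p under 0.05, against 1.82% of all. For Adar1-2KO against wild type 0 passed, against 0.0627% of all, and 6 of 41 had an unadjusted p under 0.05, against 6.74%. Adar1-2KO against Adar2KO gave 0, against 0.0209%, and 5 of 41 under 0.05, against 6.38%. DESeq2 called 0 of the 41 in each of these comparisons, where it called 0.0888%, 0.454% and 0.431% of all circles. On CIRI2 counts edgeR called 0 of 51 member circles in each comparison, where 0.0112%, 0.0537% and 0.0582% of 44688 circles passed.

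With reads summed per host, 0 of 5 hosts passed on Illumina in each comparison, where 0.0716%, 0.0954% and 0.0477% of 8382 hosts passed in the same order. Unadjusted p-values under 0.05 were found for 0, 2 and 3 of the 5 hosts, against 1.79%, 7.58% and 6.51% of all. DESeq2 again called 0 of 5, against 0.167%, 0.585% and 0.418% of all hosts.

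On ONT, edgeR called 0 of 14 circles in each comparison, where 0.00965%, 0% and 0.492% of 10367 circles passed, and 0, 2 and 4 of 14 had an unadjusted p under 0.05, against 4.28%, 7.49% and 10.6% of all. It called 0 of 5 hosts, where 0.076%, 0.038% and 1.01% of 5264 hosts passed, and 0, 3 and 4 of 5 had an unadjusted p under 0.05, against 5.97%, 10.1% and 12.9%. DESeq2 differed here. For Adar1-2KO against wild type it called the main Tulp4 circle and the Tulp4 host, where it called 0.376% of circles and 1.39% of hosts. For Adar1-2KO against Adar2KO it called the main circles of Tulp4 and Rtn4 and the Tulp4 host, where it called 1.47% of circles and 3.1% of hosts. For Adar2KO against wild type it called none, against 0.0386% of circles and 0.323% of hosts.

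The direction can be read against all features. For Adar1-2KO against wild type on Illumina, 7 of the 41 circles had a fitted value above 0, with a median log2 fold change of -0.74, beside -0.26 over all circles tested. For Adar1-2KO against Adar2KO the number was again 7, with a median of -0.65 beside -0.31. For Adar2KO against wild type it was 19 of 41, with a median of -0.05 beside 0.04. The median of the 5 hosts was 0.10 for Adar2KO and -0.35 for Adar1-2KO against wild type, beside 0.01 and -0.06 for all hosts. On ONT the medians of the 5 hosts were 0.01 and -0.57, beside 0.14 in both. With library sizes taken from all mapped reads, the all-host median for Adar1-2KO against wild type moved to 0.31, and 3 of the 5 member hosts then had values above 0.

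Expressed as a share of the library, the circles of the 5 hosts took 1.03%, 1.23% and 0.895% of Illumina back-splice reads in wild type 1, 2 and 3. In the mutants they took 0.874%, 1.02% and 0.816% (Adar2KO 1 to 3) and 0.775%, 0.508% and 0.311% (Adar1-2KO 1 to 3). The groups of Adar1-2KO and wild type did not overlap, nor did those of the 2 mutants, and Adar1-2KO 3 was lowest. The shares of Adar1-2KO 2 and 3 hold 1847 and 2479 CIRIquant reads of the main Cdyl circle, where CIRI2 counted 10237 and 14799. These 2 shares thus depend on the caller. On ONT the shares were 1.32% and 1.28% for wild type, 1.23%, 1.13% and 1.13% for Adar2KO, and 0.722%, 0.773% and 0.482% for Adar1-2KO, again without overlap of Adar1-2KO with the rest.

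**Figure D2:**
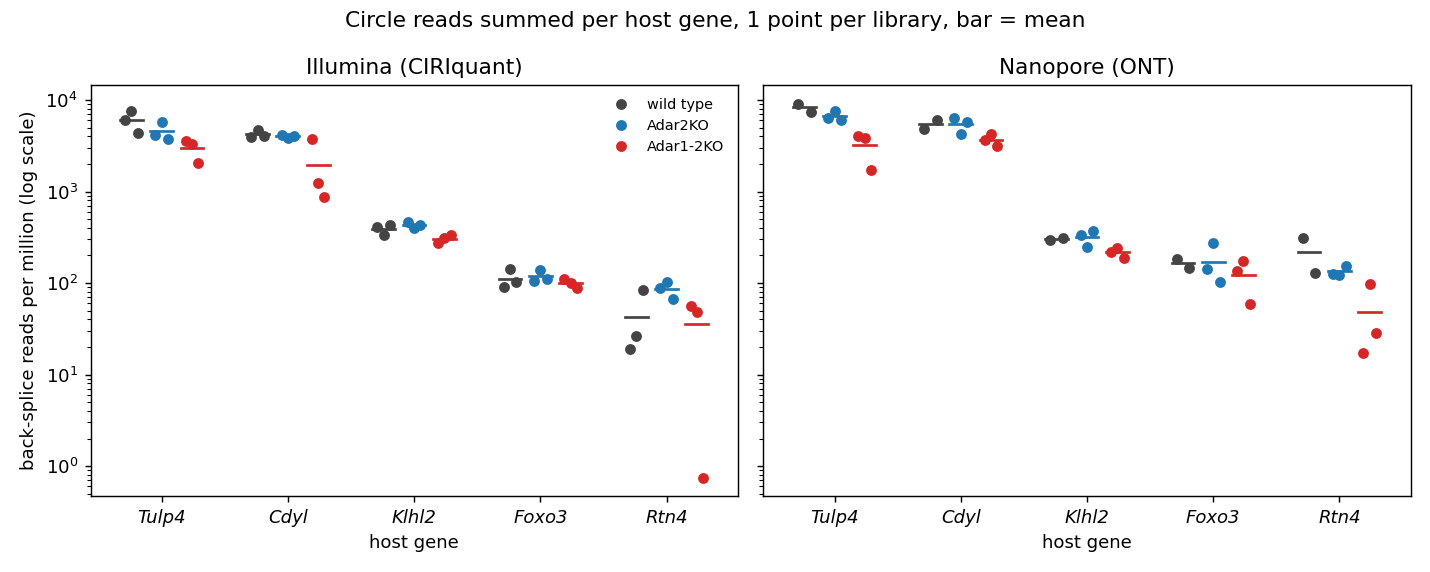
Summed CPM (log axis) of Tulp4, Cdyl, Klhl2, Foxo3 and Rtn4 are plotted with 1 point per library and a bar at each genotype's mean (grey wild type, blue Adar2KO, red Adar1-2KO), for Illumina CIRIquant counts and for ONT. The Tulp4 points of Adar1-2KO lie below those of both other genotypes in both panels, whereas the Foxo3 points overlap.

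Tulp4 had the most circle reads of the 5 hosts. Its main circle had 5327, 6358 and 3618 CPM in wild type 1, 2 and 3 on Illumina. Adar2KO brains held 3701, 4991 and 3406 CPM, and Adar1-2KO brains 3122, 2823 and 1782 CPM. All 3 Adar1-2KO libraries lay below every library of the other genotypes, and Adar2KO and wild type overlapped.

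The wild type mean was 5101 ± 1384 CPM, the Adar2KO mean 4033 ± 843 and the Adar1-2KO mean 2576 ± 703 (SD, n = 3). The fitted log2 fold change of Adar1-2KO against wild type was -0.99 ± 0.22 (SE), with an adjusted p of 0.34 by edgeR. Against Adar2KO it was -0.65 ± 0.22, with an adjusted p of 0.76, and Adar2KO against wild type gave -0.34 ± 0.22, with an adjusted p of 1. Without Adar1-2KO 3 the value against wild type was -0.77, with an adjusted p of 0.72. The read names in the CIRI2 tables show the flow cells of 8 libraries, without Adar1-2KO 1. Wild type 1, 2 and 3 and Adar1-2KO 2 ran on one, which also carried 87.352% of Adar2KO 3. A different flow cell carried 90.134% of Adar2KO 1 and 95.841% of Adar2KO 2, and Adar1-2KO 3 ran on a further pair, so that genotype and flow cell are partly tied. Within the shared flow cell, with 1 library of each mutant and thus no replicate check of either, the Tulp4 circle gave -0.83 for Adar1-2KO against wild type and -0.25 against Adar2KO.

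ONT showed the same order for this circle. Wild type 2 and 3 had 7582 and 6051 CPM. Adar2KO libraries had 5597, 6939 and 5182 CPM, and those of Adar1-2KO 3655, 3352 and 1572 CPM. The Adar1-2KO libraries again lay below all others, and the fitted log2 fold change was -1.25 ± 0.32 against wild type (adjusted p = 0.42 by edgeR) and -1.05 ± 0.29 against Adar2KO (adjusted p = 0.20). For the host as a whole on ONT the values were -1.37 ± 0.28 (adjusted p = 0.106) and -1.06 ± 0.26 (adjusted p = 0.0794). DESeq2 gave adjusted p-values of 0.00269 and 0.00489 for the circle. The host on Illumina gave -1.01 ± 0.26 against wild type, with an adjusted p of 0.436 by edgeR.

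The longer Tulp4 circles start at the acceptor of the main circle, as the shared capitals above show. The circle that ends at 6235573 had 334, 374 and 212 CPM in the wild type libraries. Its values were 205, 323 and 158 with Adar2KO, and 198, 165 and 122 with Adar1-2KO. Adar1-2KO lay below wild type without overlap and overlapped Adar2KO, and the log2 fold change against wild type was -0.92 ± 0.35 (adjusted p = 0.72 by edgeR). The circle that ends at 6227232 had 68.9, 102 and 62.7 CPM in wild type brains, 56.6, 80.6 and 52.8 with Adar2KO, and 60.3, 34.3 and 0 with Adar1-2KO. Adar1-2KO lay below wild type by a small gap and overlapped Adar2KO. The circle that ends at 6257332, in exon 6, had 41.6, 61.3 and 32.0 CPM in wild type brains, 19.0, 39.5 and 17.05 with Adar2KO, and 18.1, 14.9 and 0.729 with Adar1-2KO. Here Adar1-2KO lay below wild type, with a log2 fold change of -1.999 ± 0.94 (adjusted p = 0.74 by edgeR), and the lowest library was again Adar1-2KO 3, without which the value was -1.43.

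A Tulp4 circle with neither splice site of the main circle, chr17:6227104-6257332, was picked after its values were seen. Wild type libraries had 31.4, 45.8 and 38.3 CPM of it, Adar2KO libraries 40.3, 48.1 and 35.4, and Adar1-2KO libraries 54.0, 68.1 and 67.8. Every Adar1-2KO library lay above the others, opposite to the main circle. Its log2 fold change against wild type was 0.72 ± 0.51, with an adjusted p of 0.98 by edgeR, and on ONT the groups overlapped.

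Cdyl gave different pictures by counting tool. With CIRIquant counts the main circle had 3496, 3944 and 3325 CPM in wild type 1 to 3. Adar2KO 1 to 3 had 3774, 3405 and 3697 CPM, and Adar1-2KO 1 to 3 had 3479, 812 and 602 CPM. Adar1-2KO 1 lay within the range of wild type, and Adar1-2KO 2 and 3 lay far below all other libraries. The log2 fold change was -1.14 ± 0.44 against wild type (adjusted p = 0.72 by edgeR) and -1.15 ± 0.44 against Adar2KO (adjusted p = 0.76). Without Adar1-2KO 3 both values were -0.73. Without Adar1-2KO 1 the values became -2.34 and -2.35, with adjusted p-values of 0.000276 and 0.000265 by edgeR, so that the call depends on this library. In those fits 0.0545% and 0.0229% of all circles passed.

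CIRI2, run on the Illumina reads of 8 libraries, did not show so large a drop in these 2 libraries. It gave 3550, 3921 and 3765 CPM for wild type, 3779, 3674 and 3667 for Adar2KO, and 3534 and 2920 for Adar1-2KO 2 and 3. Both lay below every other library, Adar1-2KO 2 by a small gap. Adar1-2KO 1 was not analysed here with CIRI2. In Adar1-2KO 2 CIRIquant counted 1847 reads and CIRI2 10237, and in Adar1-2KO 3 the numbers were 2479 and 14799. The ratios of 0.1804 and 0.1675 compare with 0.6761 to 0.7889 in the other 6 libraries. Over all circles and libraries with at least 1000 CIRI2 reads, 6.03% of 3800 pairs had a ratio under 0.25. The CIRI2 log2 fold change was -0.21 against wild type, with an adjusted p of 0.43 by edgeR, and -0.20 against Adar2KO.

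ONT counts of the Cdyl circle were nearer to those of CIRI2. Wild type 2 and 3 had 3597 and 4484 CPM. Adar2KO had 5098, 3678 and 4574 CPM and Adar1-2KO 3148, 3403 and 2793 CPM. Adar1-2KO lay below both other groups, with no library near the low CIRIquant values. The log2 fold changes were -0.38 ± 0.21 and -0.51 ± 0.19, with adjusted p-values of 0.74 and 0.34 by edgeR.

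The Cdyl circle of exons 4 and 5 uses the same donor and had lower levels throughout. CIRIquant gave 407, 454 and 504 CPM for wild type, 379, 356 and 399 for Adar2KO, and 271, 388 and 231 for Adar1-2KO. Adar1-2KO lay below wild type without overlap and overlapped Adar2KO, with a log2 fold change of -0.62 ± 0.25 against wild type (adjusted p = 0.72 by edgeR). With CIRI2 these groups overlapped, at 341, 366 and 390 CPM for wild type against 357 and 202 for Adar1-2KO 2 and 3. ONT gave 438 and 530 CPM, then 592, 458 and 516, then 335, 406 and 244, and here Adar1-2KO lay below all other libraries. The ONT values were -0.56 against wild type and -0.67 against Adar2KO, with adjusted p-values of 0.70 and 0.33.

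**Figure D3:**
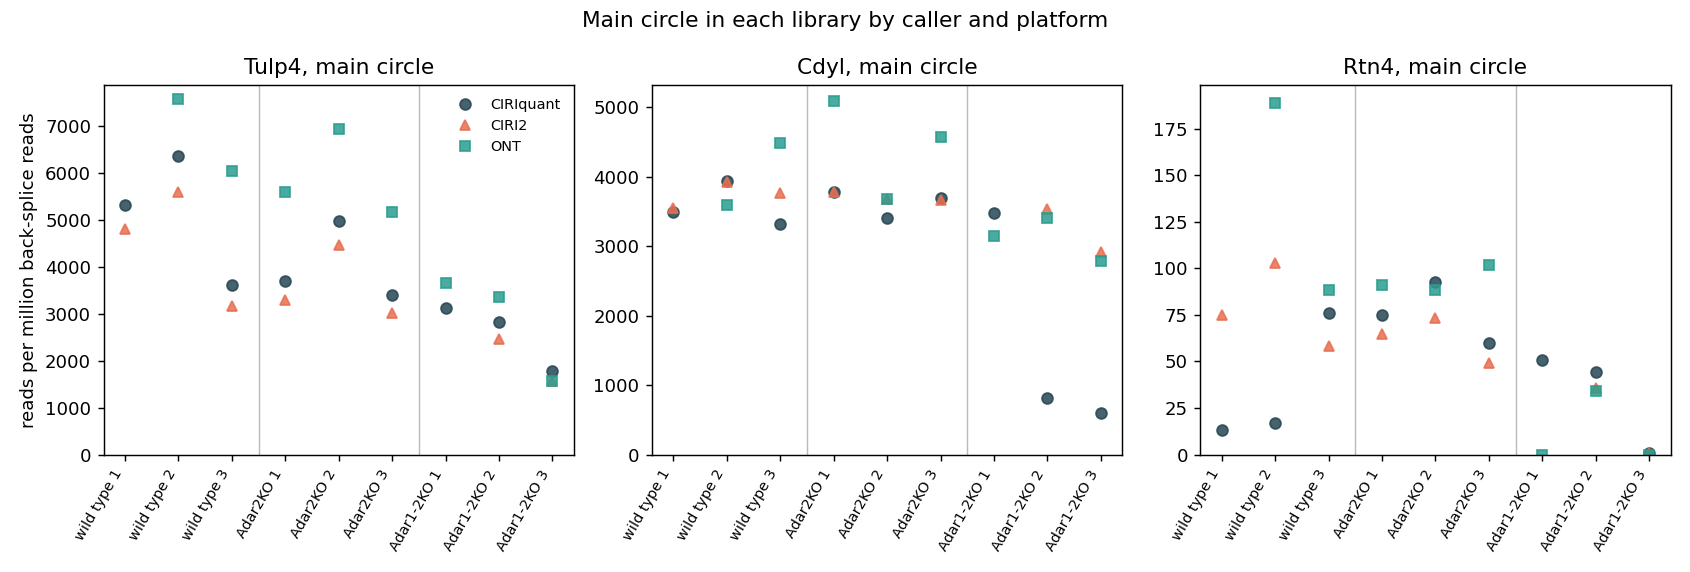
The main circles of Tulp4, Cdyl and Rtn4 are shown in separate panels over the 9 libraries (x axis), in CPM on a linear axis from 0, with circles for CIRIquant, triangles for CIRI2 and squares for ONT. CIRIquant falls away from the other markers for Cdyl in Adar1-2KO 2 and 3 (812 and 602) and for Rtn4 in wild type 1 and 2 (13.3 and 16.9), and not for Tulp4.

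The Rtn4 circle, which carries the Nogo-A exon, had few reads and also differed by caller. CIRIquant counted 42, 38 and 121 reads for wild type 1 to 3, 194, 214 and 179 for Adar2KO, and 171, 101 and 3 for Adar1-2KO. CIRI2 counted 303, 304 and 122 for wild type, 215, 215 and 188 for Adar2KO, and 104 and 3 for Adar1-2KO 2 and 3. The callers thus parted in wild type 1 and 2, where CIRIquant had 0.1386 and 0.125 of the CIRI2 number, and gave the same 3 reads in Adar1-2KO 3.

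The scaled CIRIquant values were 13.3, 16.9 and 75.9 CPM for wild type, 75.2, 92.8 and 59.8 for Adar2KO, and 50.8, 44.4 and 0.729 for Adar1-2KO. Adar1-2KO lay below Adar2KO, and wild type overlapped both. The log2 fold change of Adar2KO against wild type was 1.11 ± 0.99 with CIRIquant and -0.33 with CIRI2, so its sign depends on the caller. That of Adar1-2KO against wild type was -0.14 ± 0.98 with CIRIquant and -2.12 with CIRI2 (adjusted p = 0.45 by edgeR). Without Adar1-2KO 3 the CIRIquant value was 0.46.

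On ONT the Rtn4 circle had 41 and 18 reads in wild type 2 and 3. Adar2KO libraries had 34, 37 and 44 reads, and Adar1-2KO libraries 0, 10 and 0. All Adar1-2KO libraries lay below all others on ONT, although CIRIquant counted 171 Illumina reads in Adar1-2KO 1. The fitted ONT log2 fold change was -3.86 ± 1.15 against wild type (adjusted p = 0.46 by edgeR). Against Adar2KO it was -3.30 ± 1.08 (adjusted p = 0.28 by edgeR). Both values rest on 10 reads of 1 Adar1-2KO library. DESeq2 gave -3.14 against Adar2KO, with an adjusted p of 0.0439. For the host the ONT values were -2.28 ± 0.60 and -1.57 ± 0.55, with adjusted p-values of 0.20 and 0.22 by edgeR. The next Rtn4 circles were rarer: the circle of exon 4 alone, chr11:29683633-29683840, had 19 and 13 reads in Adar2KO 1 and 2 and was not listed in the other 7 libraries.

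No Klhl2 circle passed a test. The main circle stood at 342, 227 and 290 CPM for wild type, 352, 310.0 and 335 for Adar2KO, and 201, 211 and 307 for Adar1-2KO. Adar1-2KO lay below Adar2KO without overlap and overlapped wild type. Its log2 fold change against Adar2KO was -0.47 ± 0.28 (adjusted p = 0.95 by edgeR), and against wild type it was -0.26. Without Adar1-2KO 3, the highest of its group, these became -0.67 and -0.46, and the remaining Adar1-2KO libraries lay below all others. For the host these values were -0.49 ± 0.19 (adjusted p = 0.74) and -0.35 ± 0.19 (adjusted p = 0.70). ONT gave the main circle 175 and 133 CPM with wild type, 201, 117 and 217 with Adar2KO, and 121, 99.0 and 159 with Adar1-2KO, and all groups overlapped. The longer circle chr8:65232732-65287220 had 9.96 to 46.1 CPM over the 9 libraries, and the circle of exons 9 to 13, chr8:65202066-65207436, 5.10 to 31.7 CPM. In both the lowest CIRIquant value was that of Adar1-2KO 3. CIRI2 kept this for the exon 9 to 13 circle, at 3.55 CPM, whereas it gave the longer circle 66.9 CPM there, the second highest of 8 libraries. A Klhl2 circle that spans both of these, chr8:65202066-65287220, was picked after its values were seen, since CIRI2 counted 1114 reads of it and CIRIquant 12.

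The Foxo3 circle stood at 87.3, 128 and 96.0 CPM for wild type, 107, 132 and 108 for Adar2KO, and 110, 94.5 and 86.7 for Adar1-2KO. The 3 groups overlapped. The log2 fold changes were 0.16 for Adar2KO and -0.09 for Adar1-2KO against wild type, each with an SE of 0.37, which limits the precision for this circle. ONT gave 138 and 123 CPM for wild type, 121, 222 and 80.9 for Adar2KO, and 119, 150 and 52.5 for Adar1-2KO. These overlapped as well, and the lowest was Adar1-2KO 3.

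The tested circles of lowest p in each host were mostly small ones. Tulp4 chr17:6251975-6257332 had 4, 14 and 5 wild type reads, 6, 7 and 2 Adar2KO reads and 0 in each Adar1-2KO library, with an unadjusted p of 0.00913 by edgeR for Adar1-2KO against wild type. Cdyl chr13:35999892-36016900 had 16, 8 and 5 wild type reads, 11, 12 and 0 Adar2KO reads and 0 in each Adar1-2KO library, with an unadjusted p of 0.0115. Klhl2 chr8:65264332-65275749 had 10, 3 and 24 wild type reads, 45, 12 and 26 Adar2KO reads and 6, 3 and 0 Adar1-2KO reads, with an unadjusted p of 0.0432 for Adar1-2KO against Adar2KO. Tulp4 chr17:6227104-6235573 had 7, 6 and 3 wild type reads, 0 in each Adar2KO library and 14, 0 and 0 Adar1-2KO reads, with an unadjusted p of 0.0435 for Adar2KO against wild type. On ONT the Tulp4 circle of lowest p for Adar2KO against wild type, chr17:6248947-6274520 (exons 4 to 11), was listed in neither wild type library and had 7, 12 and 5 Adar2KO reads and 7, 3 and 0 Adar1-2KO reads, with an unadjusted p of 0.0517. None of these passed after adjustment.

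The share of a host's reads held by its main circle was compared next, which does not depend on library scaling. In Cdyl it was 88.3 ± 1.62% for wild type, 90.2 ± 0.343% for Adar2KO and 77.0 ± 13.5% for Adar1-2KO (SD, n = 3). Two-sided exact permutation tests gave p = 0.1 for Adar2KO and p = 0.4 for Adar1-2KO against wild type, and 3 against 3 cannot go below 0.1. The spread of Adar1-2KO came from replicates 2 and 3, at 66.969% (95% Wilson interval 65.191% to 68.699%) and 71.668% (70.143% to 73.145%), against 86.42% to 92.422% in the other 7 libraries. These are the libraries in which CIRIquant and CIRI2 differed for the main circle. Such intervals cover counting error only, since amplified reads are not independent molecules.

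In Tulp4 the share stayed between group means of 87.975% and 89.124%. Foxo3 means were 97.751% to 99.391% and Klhl2 means 76.257% to 79.066%. The highest Klhl2 mean, that of Adar1-2KO, rests on 94.254% in Adar1-2KO 3. Without this library the mean was 71.471%, below the other means, with libraries that overlapped wild type. The 94.254% depends on the caller. In Adar1-2KO 3 the main circle held 1263 of 1340 CIRIquant reads of the host, and 1217 of 1611 CIRI2 reads. The Rtn4 means, on few reads, were 78.615% for wild type, 88.426% for Adar2KO and 94.485% for Adar1-2KO. The last includes 3 of 3 reads in Adar1-2KO 3, and without this library it was 91.727%. The order of these means depends on the caller. In wild type 1, 2 and 3 CIRIquant gave the main circle 42 of 59, 38 of 56 and 121 of 125 host reads. CIRI2 gave it 303 of 350, 304 of 341 and 122 of 140 there. In Adar2KO 1, 2 and 3 CIRI2 gave it 215 of 260, 215 of 259 and 188 of 222. Over the 15 tests the smallest adjusted exact permutation p was 0.667.

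Back-splice and forward-splice reads at the same sites were set beside each other with the junction ratio, 2 times the back-splice reads over this plus the forward-splice reads, given here in percent. Forward-splice reads come from RNA that remained after RNase R, so the ratio is not that of untreated brain. They can also come from other circles, as the Cdyl circle of exons 4 and 5 joins these exons at the main circle's acceptor. For Tulp4, CIRIquant counted 0 forward-splice reads in 8 libraries, a ratio of 100%, and 2866 in Adar1-2KO 3, a ratio of 83.7%. CIRI2 counted 1232 to 3095 non-junction reads in its 8 libraries, with ratios of 88.235% to 92.641%. The Adar1-2KO 3 value was the lowest in both callers.

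The Cdyl junction ratio was 90.0% to 96.3% in 7 libraries and 65.5% and 63.9% in Adar1-2KO 2 and 3 with CIRIquant. With CIRI2 it was 88.139% to 92.813% in all 8, and Adar1-2KO 3 was the highest. Foxo3 had 0 forward-splice reads in wild type 1, wild type 2 and Adar2KO 3 and 2153 to 22068 elsewhere, with ratios of 3.1% to 13.3%, while CIRI2 gave 3.7374% to 14.55%. Both callers thus counted more forward-splice or non-junction reads than back-splice reads at the Foxo3 sites wherever such reads were listed. Klhl2 had 0 forward-splice reads in 7 libraries with CIRIquant, and CIRI2 gave ratios of 50.053% to 66.358%. For Rtn4, CIRIquant counted 0 to 12790 forward-splice reads and CIRI2 gave ratios of 0.0523% to 8.2572%.

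Such jumps were not particular to these hosts. Among 5230 circles listed in all 9 libraries with a mean of at least 50 reads, 1719 (32.9%) had 0 forward-splice reads in one library and at least 500 in another. The same was true of 0 of 6296 circles in CIRI2. In the test of the circular share (limma on the log2 ratio of back-splice to forward-splice reads), 0 of 11 member circles passed in each comparison, where 0.0787%, 0.0944% and 0.189% of 6353 circles did. Unadjusted p-values under 0.05 were found for 0, 1 and 1 of the 11, against 2.93%, 4.82% and 5.12% of all. The lowest p was that of Tulp4 chr17:6187486-6257332 in Adar1-2KO against wild type, with a log2 difference of -8.15 ± 2.87 and an adjusted p of 0.813 by limma. Over the alternatives the value ran from -11.48 to -2.85. It was -4.79 without Adar1-2KO 3 and -2.85 with CIRI2 counts, and the added 0.5 sets the scale where a count is 0. It had 0 forward-splice reads in 7 libraries and 84 and 540 in Adar1-2KO 1 and 3.

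**Figure D4:**
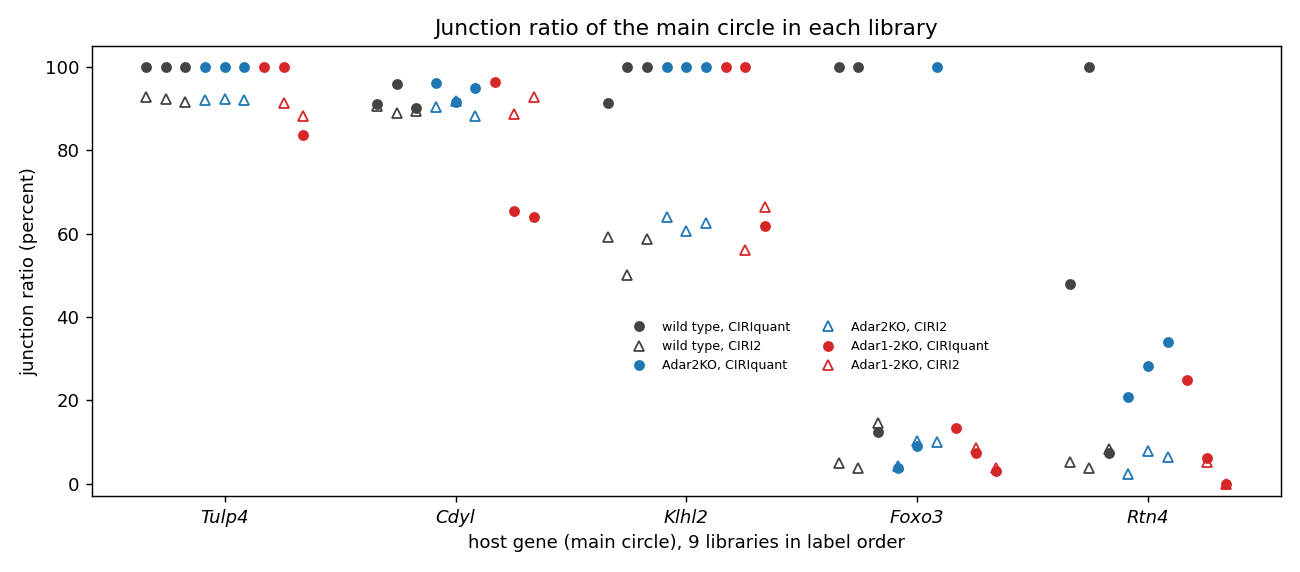
The junction ratio in percent (y axis) of the main circle of each of the 5 hosts is plotted over the 9 libraries, with filled circles for CIRIquant and open triangles for CIRI2. CIRIquant jumps to 100% where no forward-splice read was counted, as for Foxo3 in 3 libraries, while CIRI2 keeps Foxo3 between 3.7374% and 14.55%.

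Related genes were looked at as a list of 53: tubby-like genes, chromatin partners of CDYL, reticulons and Nogo receptors, kelch-like and CUL3 genes with their WNK targets, and the FOXO and AKT pathway. Their circles could be tested for 37 hosts on Illumina and 31 on ONT, and edgeR called 0 in every comparison. Unadjusted p-values under 0.05 numbered 0, 3 and 3 of 37 on Illumina, where 1.79%, 7.58% and 6.51% of all hosts had one, and 2, 2 and 1 of 31 on ONT, where 5.97%, 10.1% and 12.9% did. Their median log2 fold changes on Illumina were -0.02, -0.14 and -0.06, beside 0.01, -0.06 and -0.09 over all hosts, and on ONT 0.17, -0.02 and -0.15, beside 0.14, 0.14 and -0.02. Among the hosts with most reads, Ehmt1, a histone methyltransferase that works with CDYL, had 862 CPM in wild type and 943 in Adar1-2KO, and Ezh2, the methyltransferase of Polycomb complexes, had 335 and 265. Ezh2 gave a log2 fold change of -0.34, with an adjusted p of 0.80 by edgeR.

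A second list held 40 other well-studied hosts of brain circles, of which 38 could be tested on Illumina and 36 on ONT. None passed by edgeR in any comparison, and 2, 6 and 2 had an unadjusted p under 0.05 on Illumina and 6, 7 and 8 on ONT, against the same shares of all hosts as for the first list. Their Illumina medians were -0.01, -0.11 and -0.07 and their ONT medians -0.03, -0.10 and -0.05. Zfp609, a zinc finger gene, averaged 18791 CPM for wild type, 16881 for Adar2KO and 14353 for Adar1-2KO, with -0.39 ± 0.19 for Adar1-2KO against wild type and an adjusted p of 0.65. Rims2, which encodes a presynaptic active zone protein, had 11388, 11367 and 13731 CPM, and Gigyf2 12284, 12194 and 11340.

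Hosts with the most similar pattern over the 9 Illumina libraries were sought among 3702 hosts with a mean of at least 20 CPM, by Pearson correlation of log2 CPM. The libraries differed in depth, from 1516772 to 4308264 back-splice reads, and the values are a description. Of the 15 hosts named, 3 stayed among the 3 nearest without Adar1-2KO 3: Sos1, Adcy6 and Sec23ip. For Tulp4 they were Sos1 (r = 0.990), Plaa (0.980) and Nudcd1 (0.974), and these stayed at 0.985, 0.974 and 0.969 in CIRI2 counts of 8 libraries. For Cdyl they were Adcy6 (0.989), Rcbtb1 (0.980) and Armh4 (0.978), which in CIRI2 counts had 0.796, 0.883 and 0.849. For Rtn4 they were Tle1 (0.970), Megf11 (0.965) and St6galnac3 (0.964), of which the last had 0.380 in CIRI2 counts. Without Adar1-2KO 3 these fell to 0.825, 0.801 and 0.853, at ranks 16, 27 and 10. Klhl2 was nearest to Otud7a (0.929), Tanc1 (0.868) and A230057D06Rik (0.866; 0.387 in CIRI2 counts), and Foxo3 to Fam114a2 (0.879), Plce1 (0.865) and Sec23ip (0.864).

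In the authors' deposited table for Adar1-2KO against wild type, 116 of the member circles were listed and 0 had an adjusted p under 0.05. This deposited table gave the main Tulp4 circle a log2 fold change of -0.69 ± 0.84 (SE) and the Cdyl circle -0.66 ± 0.90. In the same authors' table the Rtn4 circle had 0.43, the Klhl2 circle -0.41 and the Foxo3 circle 0.02. The authors' deposited table for Adar2KO, which lists 772 circles, held none of the members.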

How the data were processed

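Per the labels' protocols, RNase R was applied to 5 µg of RNA per sample, and cDNA made by rolling reverse transcription was amplified for 14 PCR cycles and sequenced as ONT libraries or, after 9 further cycles, as paired 150-base Illumina reads. Per the submitters' processing notes, BWA 0.7.17, CIRIquant 1.1.2 and GRCm39 were used. The caller of the ONT tables and the CIRI2 version are not given in the sources used here. The deposited CIRIquant tables hold counts of back-splice and forward-splice reads and a junction ratio, a fraction from 0 to 1, per the file headers. They also hold, per the file headers, a CPM value per circle, relative to mapped reads. In the 3 deposited Adar1-2KO tables headers and values are offset by 1 column, and the values were moved back. The deposited CIRI2 and ONT tables hold counts of reads, listed from 2 up on ONT. The processing notes also list DESeq2 2.11.40.8, and the authors' deposited comparisons of mutants with wild type hold p-values, log2 fold changes, a Wald score and, as a normalized signal, the base mean.

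The members and lists were chosen with earlier results of these data known. From the counts, all features that reached 5 reads in 3 or more libraries were fitted with edgeR 4.0.16 (quasi-likelihood F-test, two-sided, TMM, genotype only, all libraries of a platform in 1 fit) in R 4.3.3, with Benjamini-Hochberg adjustment. The circular share was fitted with limma 3.58.1 on log2((back-splice + 0.5)/(forward-splice + 0.5)). Circles were kept where the sum of these reads reached 20, with at least 1 back-splice read, in each library. The scripts were tested on simulated data. Text values in CPM were recomputed from counts, and a mixed-gene circle counts for 1 host in host sums. The alternatives were DESeq2 1.42.0, its size factors, mapped-read library sizes, no filter or a stricter one, CIRI2 counts, circles of a single named gene, another pseudocount, a replicate block and leaving out each library. A fit within flow cell 1, CIRIquant restricted to the libraries with CIRI2 and the CIRI2 circular share were added after the data were seen. Circles to be named were each host's 3 most abundant, any that passed, and those of lowest p in a comparison. Some of these, such as the minor Foxo3 circles, were left out of the text. Further circles were added after their values were seen. Of the related genes, those with most reads were named, and 1 of them is not reported here.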

Additional observations from a re-analysis of the deposited data

How the results depend on the processing

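No member passed in the fits described, so each value here counts members that passed under another setting. Without a filter on low counts, 1, 2 and 2 circles passed on Illumina (Adar2KO against wild type, Adar1-2KO against wild type, Adar1-2KO against Adar2KO), the main circles of Tulp4 and Cdyl, and 2 and 2 hosts for the Adar1-2KO comparisons. Of all circles 0.0455%, 0.208% and 0.178% passed there, and of all hosts 1.18% and 0.985%. On ONT that setting gave 2 and 3 circles and 2 and 3 hosts, against 0.0692% and 0.119% of circles and 0.585% and 1.21% of hosts. DESeq2 gave 1 and 2 circles and 1 and 1 hosts on ONT and 0 on Illumina. Leaving out 1 replicate at a time gave 0 to 1 circles and 0 to 1 hosts for Adar1-2KO against wild type and against Adar2KO, except that no circle passed against wild type on ONT. The 1 was Cdyl on Illumina without Adar1-2KO replicate 1 (0.0545% and 0.0229% of all circles, 0.175% and 0.0499% of hosts), the Rtn4 circle on ONT without Adar1-2KO replicate 2 (0.308% of circles), and the Tulp4 host on ONT without Adar1-2KO replicate 3 (adjusted p = 0.00429 and 0.0073 by edgeR, 1.26% and 3.55% of hosts). Of the settings added after the data were seen, flow cell 1 gave 1 host (Cdyl, -1.76) against wild type, but there Adar1-2KO is the single library 2, in which CIRIquant counted 0.1804 of the CIRI2 reads of the main Cdyl circle, so this is no test of genotype. CIRIquant restricted to the libraries with CIRI2 gave 1 circle and 1 host in each Adar1-2KO comparison, these being the libraries left without Adar1-2KO replicate 1. The cause was not tested.

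The replicate numbers did not pair the samples, with correlations near 0. With a replicate block, 1 circle passed on Illumina for Adar1-2KO against wild type (Tulp4, adjusted p = 0.00291 by edgeR, 0.0522% of all circles) and 1 host on ONT in each Adar1-2KO comparison (Tulp4, adjusted p = 0.0493 and 0.0242, 0.076% and 0.95% of all hosts).

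Some log2 values changed sign, and the cause was not tested. With CIRI2 counts, Adar2KO against wild type gave -0.33 for the Rtn4 circle and -0.32 for its host, and Adar1-2KO against wild type 0.11 for Klhl2 chr8:65232732-65287220. Mapped-read sizes gave 0.0129 for the Klhl2 host in Adar1-2KO against wild type. Leaving out 1 replicate at a time on ONT, the Rtn4 host ranged from -1.19 to 0.0476 in Adar2KO against wild type (above 0 without wild type replicate 2), and the Foxo3 host from -0.81 to 0.0022 in Adar1-2KO against Adar2KO (above 0 without Adar2KO replicate 2). Flow cell 1 gave 0.0792 for Tulp4 chr17:6187486-6235573 in Adar1-2KO against Adar2KO. In the circular share, Klhl2 chr8:65202066-65207436 ranged from -6.16 to 0.33 against wild type and from -6.28 to 0.21 against Adar2KO (above 0 without Adar1-2KO replicate 3). CIRI2 shares in Adar2KO against wild type gave 0.23 for Foxo3 and 0.11 for the Cdyl circle of exons 4 and 5. For the main Cdyl circle they gave 0.20 and 0.12 in the Adar1-2KO comparisons, and for the exon 4 and 5 circle -0.14 against Adar2KO. A change within its SE was given no direction. Of the other values of single circles, hosts and main circle shares, 2305 were counted as unchanged, and 39 newly passed. The unchanged include changes of sign within the SE, or within the SD for shares. Among them the main Rtn4 circle on Illumina ranged from -2.12 to 1.08 in Adar1-2KO against wild type. Where leaving out a library leaves 1 wild type library on ONT, it is assumed to vary like the other groups. Depth limits Rtn4 and the minor circles, and Rtn4 also depends on the caller.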
